A study of Mus musculus with 39 samples.

Results

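Peaks of open chromatin that were called in all 3 ATAC-seq libraries of FANS and in none of the 3 of INTACT are described here. FANS sorts fluorescent nuclei by flow cytometry, and INTACT captures the same tagged nuclei on magnetic beads coated with an antibody. The peaks of the 6 lists were merged where they shared at least 1 bp, and of the 165770 merged autosomal regions 8511 (5.13%) met this rule. They are called FANS-only regions below. The members were chosen by the presence of called peaks, so numbers of peaks, heights and distances between the techniques are given as a description, with no test.

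ATAC-seq marks DNA that a transposase can reach in the nucleus. Such open DNA lies at promoters, where transcription starts, at enhancers in introns and between genes, and at sites bound by insulator proteins such as CTCF. Mammalian chromosomes are mosaics of long GC-rich stretches, which hold many short genes, and AT-rich stretches, which hold few genes and many long ones.

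All nuclei were neocortical sfGFP+ nuclei of adult mice of both sexes, 13 to 16 weeks old, that carried Arc creERT2 (TG/WT) and, on 1 allele or both (M/WT, M/M), the reporter R26 CAG-Sun1-sfGFP-Myc. Tamoxifen was given 5 h before a social interaction test, so the Cre driven by the Arc promoter tagged the nuclear membrane of cells active at that time, and the labels call the material activated neuronal nuclei. The 3 ATAC-seq libraries of each technique are technical replicates of a single biological source, with 50000 nuclei per library. RNA-seq of batch 1 holds 4 FANS and 4 INTACT libraries, and since that batch is a single biological source its spread may not include the variation between animals. Both techniques received the same genotype, tamoxifen and test.

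The material was checked against marker genes of cortical cell types. Promoter regions with peaks in all 6 lists were found at 11 of 13 markers of excitatory neurons, which are the main cells that express Arc in the cortex, and at 4 of 13 markers of inhibitory neurons. They were also found at 11 of 12 autosomal markers of oligodendrocytes, 5 of 13 of astrocytes and 2 of 10 of microglia, and whether these peaks came from other cells was not tested. Between 120945 and 127267 autosomal peaks were listed per FANS library and between 96557 and 120198 per INTACT library. The number of reads behind the ATAC-seq lists is unknown.

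The 4 sequences shown first reach 100 bases to each side of the summit of the highest FANS-only region of each class, where a class says whether the centre of the region lies at a promoter, in an exon, in an intron or between genes. Their GC contents were 41.3%, 58.2%, 49.8% and 57.2% in this order. Coordinates are mm10, the plus strand is printed, and capitals mark the letters of any motif searched, spelled out with the shares below, and TEAD (GGAATG) in the last. Only exact letters were searched, so a site spelled otherwise is not marked. In the exon of Cdc42bpg, SP overlaps EGR and the bHLH letters overlap AP-1.
Upstream of Svs6, chr2:164315606-164315806: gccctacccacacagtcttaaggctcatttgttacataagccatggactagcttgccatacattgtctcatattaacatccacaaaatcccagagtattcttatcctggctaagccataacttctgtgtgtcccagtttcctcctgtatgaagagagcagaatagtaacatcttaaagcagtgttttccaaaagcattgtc
Exon of Cdc42bpg, chr19:6322284-6322484: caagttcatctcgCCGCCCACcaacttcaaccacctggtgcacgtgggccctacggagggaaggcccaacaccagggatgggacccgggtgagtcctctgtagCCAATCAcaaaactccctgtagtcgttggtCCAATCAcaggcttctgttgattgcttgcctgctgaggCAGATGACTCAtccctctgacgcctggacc
Intron of Ass1, chr2:31482981-31483181: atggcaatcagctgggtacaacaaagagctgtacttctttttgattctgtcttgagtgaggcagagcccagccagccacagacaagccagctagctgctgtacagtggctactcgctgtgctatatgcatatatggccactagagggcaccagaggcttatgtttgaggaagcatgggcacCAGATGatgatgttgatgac
Upstream of Myl2, chr5:122081046-122081246: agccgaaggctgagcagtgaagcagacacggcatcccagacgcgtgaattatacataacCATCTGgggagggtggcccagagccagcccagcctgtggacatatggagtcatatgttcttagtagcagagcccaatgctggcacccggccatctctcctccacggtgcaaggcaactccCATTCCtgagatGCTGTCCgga

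The sequences of the second group carry letters that proteins of open chromatin are known to bind, and each is the highest FANS-only region outside promoters with the motif in capitals. The CTCF motif marks insulators, ETS and YY1 motifs are common in promoters, and the CRE motif is bound by CREB, the factor that turns neuronal activity into transcription.
CTCF letters near Tbcb, chr7:30216857-30217057: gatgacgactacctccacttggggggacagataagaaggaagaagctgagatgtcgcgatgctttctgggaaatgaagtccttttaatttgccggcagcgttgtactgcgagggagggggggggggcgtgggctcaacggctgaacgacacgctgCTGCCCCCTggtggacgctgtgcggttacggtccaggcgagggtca
ETS letters in an exon of Ubr4, chr4:139430265-139430465: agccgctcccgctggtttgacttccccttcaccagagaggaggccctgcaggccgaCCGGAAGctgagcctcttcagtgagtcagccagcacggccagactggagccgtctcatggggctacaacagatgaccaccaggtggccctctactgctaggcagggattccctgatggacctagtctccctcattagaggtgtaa
YY1 letters upstream of Camk1d, chr2:5770690-5770890: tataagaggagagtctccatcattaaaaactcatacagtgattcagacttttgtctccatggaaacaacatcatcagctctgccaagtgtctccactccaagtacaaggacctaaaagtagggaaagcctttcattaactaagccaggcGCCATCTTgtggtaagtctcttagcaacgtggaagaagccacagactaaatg
CRE letters upstream of Fbxw4, chr19:45692253-45692453: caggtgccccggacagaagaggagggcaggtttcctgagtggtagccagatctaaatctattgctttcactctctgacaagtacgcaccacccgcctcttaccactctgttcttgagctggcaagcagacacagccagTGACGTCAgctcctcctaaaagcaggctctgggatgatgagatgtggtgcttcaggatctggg

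The region whose lowest height was largest lay in an intron of Ass1, which encodes an enzyme of the urea cycle, 12851 bp after the start site (chr2:31482855-31483387). Its height, the fold enrichment over background that the authors' peak caller gave, was 18.72, 15.74 and 19.19 in FANS libraries 1 to 3, where the median peak had 6.54, 6.55 and 6.61. The region upstream of Myl2, a myosin light chain of muscle, had heights of 15.8, 15.91 and 15.42 (chr5:122080842-122081390). The highest exonic region (chr19:6321991-6322644) lay in Cdc42bpg, a kinase gene, nearest to the start site of Men1, and had 13.09, 14.06 and 14.81. At promoters the highest were those of Svs6, a seminal vesicle protein (10.7, 10.81 and 12.42), and of Ccdc65, a protein of motile cilia (10.38, 11.6 and 11.21).

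Across all members, most FANS-only regions were low peaks of their lists. Their median heights were 4.51, 4.68 and 4.7 in FANS libraries 1, 2 and 3, against 9.05, 9.36 and 9.59 for the 74590 regions with a peak in all 6 lists. Ranked among all autosomal peaks of the same list, the median FANS-only region stood at the 28.1, 31.2 and 29.9 percentile, and 83%, 79.8% and 80.3% stood below the list's median. Only 4, 8 and 2 regions reached the top 10% of a list. The regions were also narrow, with a median of 405 bp (quartiles 320 and 517 bp) against 736 bp for the regions of all 6 lists. Regions with 3 FANS peaks and 1 INTACT peak had 442 bp, those with 3 and 2 had 495 bp, and those with 2 FANS peaks and no INTACT peak had 307 bp.

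**Figure D1:**
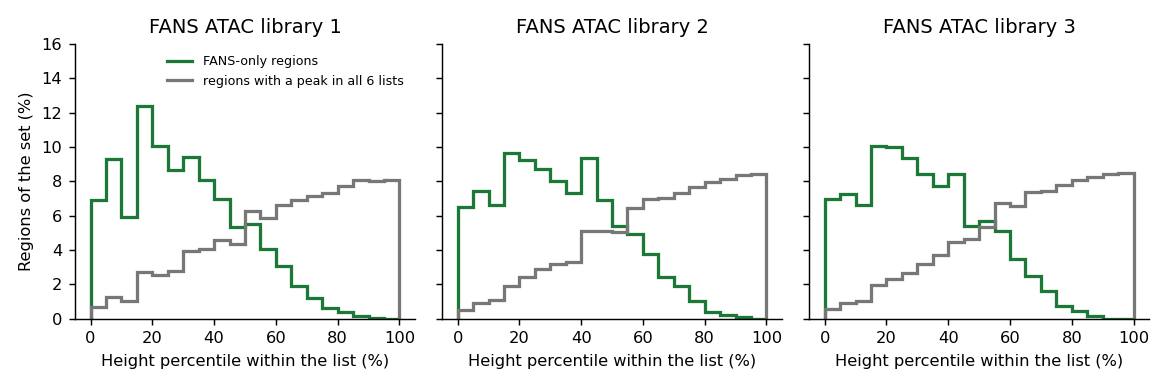
Height percentile of each region's peak among all autosomal peaks of its FANS list (x axis, %) against the share of the set in steps of 5 percentiles (y axis, %), for the 8511 FANS-only regions and the 74590 regions with a peak in all 6 lists, 1 panel per library. In each library the FANS-only regions pile up below the 50th percentile, with medians of 28.1, 31.2 and 29.9.

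The weakest of the 3 FANS peaks of a region had a -log10 q-value of 1.355 to 88.65 with a median of 7.17, and it was under 2 in 163 regions (1.92%). Just outside the rule, the 7844 regions with 3 FANS peaks and 1 INTACT peak had a median lowest FANS height of 4.31, close to the 4.05 of the FANS-only regions, and their INTACT peak had a median height of 4.01. Of those 7844, INTACT library 3, the longest INTACT list, held 4990 (63.6%), library 1 held 1998 and library 2 held 856. Without INTACT library 3 the rule would keep 13510 regions in place of 8511. The 7345 regions with peaks in only 2 FANS libraries and none in INTACT had a median lowest height of 3.38. The nearest INTACT peak lay at a median distance of 6076 bp, within 500 bp for 335 regions (3.94%) and over 10 kb away for 2557 (30.04%). The reverse set, with a peak in all 3 INTACT lists and no FANS list, held 2213 regions and is called INTACT-only.

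By position, 4471 FANS-only regions (52.53%) lay in introns, 2975 (34.95%) between genes, 534 (6.27%) in exons and 531 (6.24%) at promoters, within 1500 bp of an annotated start site. With promoters reaching from 1000 bp before to 100 bp after the start site, the promoter share was 2.84%. Of the regions with peaks in all 6 lists, 17.89% lay at promoters, 2.94% in exons and 40.8% in introns. Sets just outside the rule were as intronic as the FANS-only regions or more so, with 55.25% for 3 FANS peaks and 1 INTACT peak, 53.89% for 3 and 2, and 56.72% for 2 FANS peaks and no INTACT peak. The INTACT-only regions stood at the other side, with 66.61% between genes and 1.94% at promoters. The start site nearest to a FANS-only region was a median of 22229 bp away, against 30444 bp for the regions of all 6 lists and 108867 bp for the INTACT-only regions. Of the intronic FANS-only regions, 2963 (66.3%) had their nearest start site in a gene that spans them.

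**Figure D2:**
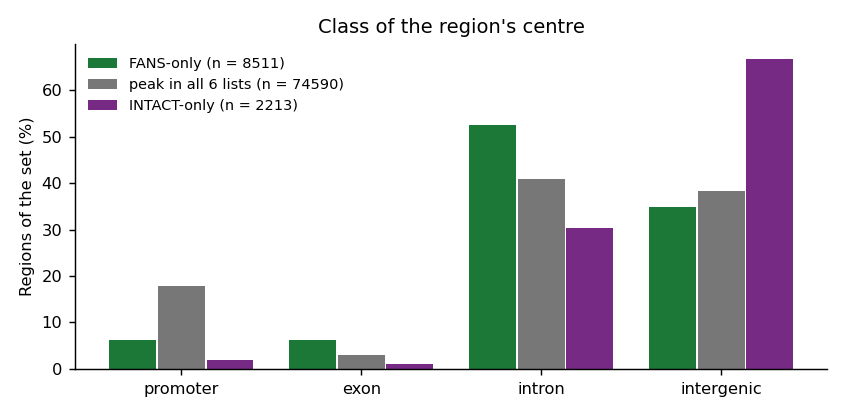
Share of regions (y axis, %) whose centre lies at a promoter, in an exon, in an intron or between genes (x axis), for FANS-only, all-6 and INTACT-only regions. FANS-only regions have the tallest bar in introns (52.53%) and INTACT-only regions between genes (66.61%).

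Promoters among the FANS-only regions were set beside promoters open in all 6 lists. Their windows, 150 bases to each side of the summit, had a median GC content of 57.8% and 3.32 CpG dinucleotides per 100 bases, against 64.5% and 8.31 for the 13343 promoter regions of all 6 lists, which is the range of CpG islands. Their median lowest height was 3.61 against 13.0. Promoters of the regions with 3 FANS peaks and 1 INTACT peak were close to the FANS-only ones, with 57.5% GC, 3.32 CpG per 100 bases and a lowest height of 3.87, and made up 5.71% of their set. Of the 516 genes with a FANS-only promoter region, 157 (30.4%) also had a promoter region with an INTACT peak and 114 (22.1%) one with peaks in all 6 lists. Promoter regions of this kind included Apoe (heights 4.43, 4.31 and 3.22), the lipid carrier of astrocytes, Aldoc (9.36, 8.88 and 9.99), their glycolytic aldolase, Neurod2 (3.62, 4.08 and 4.34), a transcription factor of excitatory neurons, and Npas4 (3.51, 3.51 and 4.07), an activity-induced transcription factor. Npas4 also had a promoter region with peaks in all 6 lists, and Apoe, Aldoc and Neurod2 had none. Gad1 and Dlx2, genes of inhibitory neurons, and Cldn5, the claudin of vessel walls, each had a FANS-only promoter region too, and none with peaks in all 6 lists.

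The GC content of the surroundings was not used by the rule. The 1 Mb bins that held them had a median GC content of 46.7% (quartiles 44.6 and 48.6%), whereas it was 42.8% for regions of all 6 lists and 39.1% for INTACT-only regions. The windows themselves had 50.5%, 48.2% and 38.9%. Sets just outside the rule lay between the first of these sets and the second. Regional GC was 45.3% for regions with 2 FANS peaks and no INTACT peak, 45.2% for those with 3 FANS peaks and 1 INTACT peak and 44.2% for those with 3 and 2, and their windows had 49.2%, 49.5% and 48.8%. In bins under 38% GC, 56 of 12055 merged regions (0.46%) were FANS-only and 656 (5.44%) INTACT-only. In bins of at least 48% GC, 2735 of 15382 (17.78%) were FANS-only and 2 (0.01%) INTACT-only. With each library left out in turn, INTACT library 3 included, these shares of FANS-only regions were 0.63 to 1.2% and 18.85 to 23.68%. The first was over 1.5 times as high without each library other than INTACT library 2, with 1.2% without INTACT library 3. With the same number of peaks from each list the shares were 0.25% and 16.89%. Between these ends the share of FANS-only regions rose in each step from 38% GC on, through 0.45%, 1.36%, 2.82%, 6.47% and 11.6%.

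**Figure D3:**
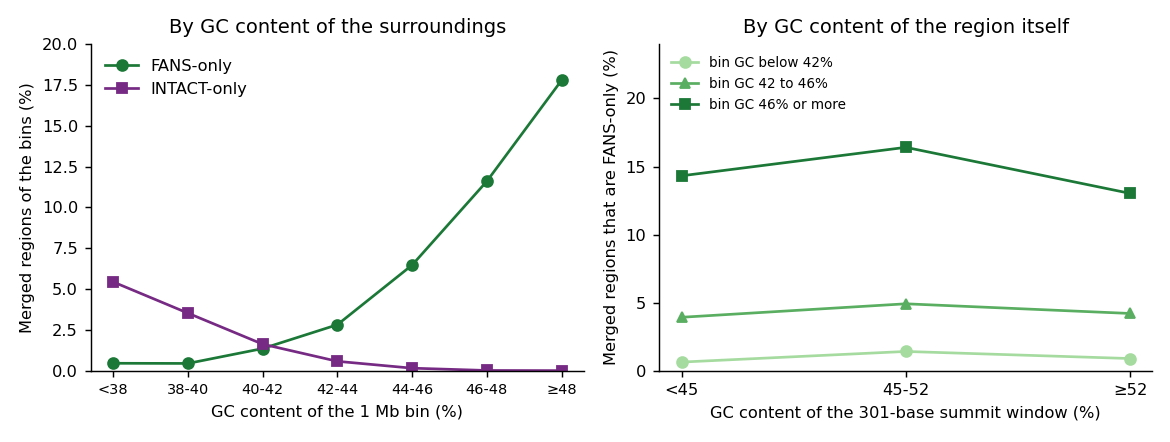
Left, share of merged regions that are FANS-only or INTACT-only (y axis, %) by GC content of the 1 Mb bin (x axis, %). Right, share that is FANS-only by GC content of the region's own window at the summit (x axis, %), with 1 line per range of bin GC. The left panel rises from 0.46 to 17.78% for FANS-only regions and falls from 5.44 to 0.01% for INTACT-only regions, and on the right the lines of the 3 ranges of bin GC do not overlap.

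The share was also taken by the base composition of the region itself within a range of bin GC. In bins of at least 46% GC, 14.32% of regions with a window under 45% GC were FANS-only, 16.41% of those with 45 to 52% and 13.03% of those with 52% or more. In bins under 42% GC the same windows gave 0.64%, 1.42% and 0.9%. No window range of the latter bins reached the share of any window range of the former. The rise was present in each class, from 0.33 to 6.14% at promoters, from 1.27 to 16.86% in exons, from 1.27 to 15.38% in introns and from 0.59 to 16.92% between genes, for bins under 42% and of at least 46%.

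The peak lists were also compared as a whole, FANS-only and INTACT-only regions included. In bins of at least 48% GC lay 10.56%, 10.74% and 10.4% of the autosomal peaks of FANS libraries 1 to 3, and 6.59%, 6.51% and 6.75% of those of INTACT libraries 1 to 3. In bins under 38% lay 5.44%, 5.33% and 5.6% in FANS and 8.4%, 8.39% and 8.17% in INTACT. The members make up 6.72 to 7.09% of the FANS peaks, so part of this difference comes with the rule. Without the peaks of FANS-only and INTACT-only regions, an alternative added after seeing the data, bins of at least 48% held 8.91%, 9.18% and 8.83% in FANS and 6.72%, 6.67% and 6.88% in INTACT. Bins under 38% then held 5.81%, 5.67% and 5.95%, and 7.96%, 7.9% and 7.77%. The ranges of the techniques did not overlap in either case. With technical replicates of a single source, the technique and anything else that differed between the 2 preparations cannot be told apart.

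The FANS-only regions were gathered in a small part of the genome. Of 2398 bins of 1 Mb with a merged region, 1281 (53.4%) held no FANS-only region, and the 240 bins with the most held 4955 of them (58.2%), beside 15.9% of all merged regions. The densest were chr4:138000001-139000000, where 50 of 160 merged regions were FANS-only, and the neighbouring bins chr11:117000001-118000000, chr11:118000001-119000000 and chr11:119000001-120000000, with 49 of 162, 43 of 188 and 48 of 134. The bin chr5:122000001-123000000, which holds the start site of Cux2, a factor of upper-layer neurons, and the region upstream of Myl2, had 42 of 135. All 5 had a GC content of 47.5 to 51.4%. On a finer scale, the next merged region was also FANS-only for 16.3% of the FANS-only regions, against 3.9% of the regions of all 6 lists, and the longest run was 6 regions in a row.

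By chromosome, 10.46% of the merged regions of chromosome 7, 9.92% of chromosome 11, 8.24% of chromosome 5 and 8.1% of chromosome 4 were FANS-only. The lowest shares were 1.06% on chromosome 3, 1.95% on chromosome 18 and 2.18% on chromosome 10. Across the 2331 bins with at least 10 regions, the share followed the GC content of the bin (Spearman's rho 0.73, a description, since bins share libraries and neighbours), and within single chromosomes rho ran from 0.47 on chromosome 3 to 0.82 on chromosome 17.

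**Figure D4:**
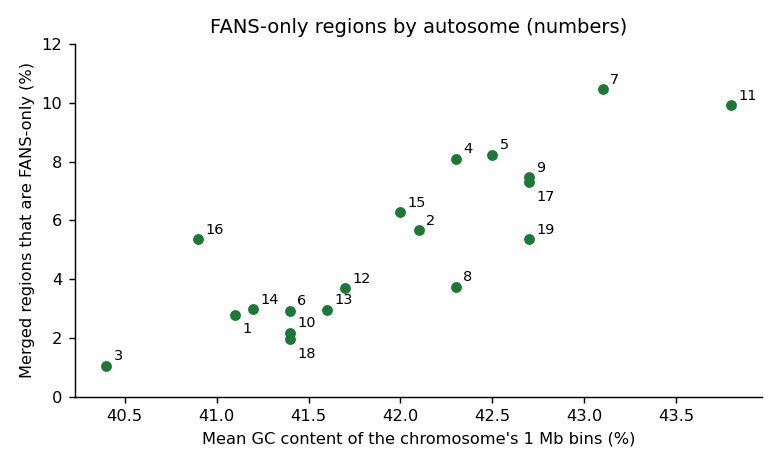
Share of the merged regions of each autosome that are FANS-only (y axis, %) against the mean GC content of its 1 Mb bins (x axis, %), with each point labelled by its chromosome number. Chromosomes 7 and 11 stand highest at 10.46% and 9.92%, chromosome 3 lowest at 1.06%, and chromosome 16, at 5.36%, stands above others of like GC.

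Chromosome 16 had more FANS-only regions than its base composition went with elsewhere. In bins of 41 to 43% GC its share was 8.41% (56 of 666), while the other autosomes ranged from 0.55% on chromosome 3 to 4.39% on chromosome 7. Much of this lay in Rbfox1, and without the span of that gene the share on chromosome 16 was 3.49% (17 of 487). Rbfox1 was picked out for this after its values were seen.

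Some genes collected many FANS-only regions. Rbfox1, which encodes a neuronal splicing regulator, and Celf2, another RNA-binding protein, were each nearest to 31, Ntm, a cell adhesion protein of neurons, to 28, the predicted gene Gm39436 to 25, and Dlg2, a scaffold protein of the postsynaptic density, to 22. These genes lie in bins of moderate to low GC content, 37.6 to 46.2% for their regions. In the span of Rbfox1 (chr16:5884793-7412480), 43 of 192 merged regions (22.4%) were FANS-only and 44 had peaks in all 6 lists. In the span of Dlg2 (chr7:91090786-92449246) they were 23 of 130 (17.7%), in that of Ntm (chr9:28994749-29963269) 21 of 140 (15.0%) and in that of Celf2 (chr2:6539694-7396198) 23 of 182 (12.6%). The lowest heights of these regions ran from 2.17 to 10.38. By Gm39436, all but 1 of the 25 regions lay between genes. Of the 579 FANS-only regions in bins under 42% GC, 24 were nearest to Rbfox1, 22 to Dlg2 and 20 to Celf2, so a small set of long neuronal genes held part of what lay outside the GC-rich bins.

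Motifs were searched as exact letters on both strands in the same windows, and are given for the 7980 FANS-only regions outside promoters beside the 61247 regions of all 6 lists outside promoters and all 148580 merged regions outside promoters. Shares for several motifs, most of them rich in G and C, were higher in FANS-only regions. CTCF (AGNNGGCAG) was found in 17.23%, against 14.29% of regions of all 6 lists and 13.59% of all merged regions. SP (GGGCGG), bound by general promoter factors, was found in 9.74% against 7.67% and 6.68%, and REST (GGACAGC), bound by the repressor of neuronal genes, in 7.08% against 5.24% and 5.55%. ETS (CCGGAAG) stood at 1.99% against 1.48% and 1.34%, and EGR (GTGGGCG), an activity-induced family whose letters share a stretch with SP, at 4.26% against 3.56% and 2.96%. YY1 (AAGATGGC) was held by 1.93% against 1.64% and 1.69%, and CRE (TGACGTCA) by 0.53%, or 42 regions, against 0.44% and 0.38%.

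Shares for motifs made of A and T alone were lower. The TATA letters (TATAAA) were found in 11.75% of FANS-only regions outside promoters and 18.18% of those of all 6 lists, and the homeobox letters (TAATTA) in 4.06% and 6.23%. INTACT-only regions lay at the other end, with 33.92% for TATA, 12.72% for homeobox, 8.99% for CTCF and 2.35% for SP. Over all merged regions outside promoters these were 18.26% and 6.49%. AP-1 (TGANTCA), the motif of Fos and Jun, was found in 17.88% of FANS-only regions, 21.74% of regions of all 6 lists and 19.47% of all merged regions. The motif of neuronal bHLH factors such as Neurod2 (CAGATG) was found in 33.86%, 36.41% and 34.01%, so FANS-only regions stood near all merged regions.

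Among windows of 45 to 55% GC outside promoters, 4985 of them FANS-only and 30253 of all 6 lists, the shares lay closer together for several motifs. CTCF was held by 16.65% of both sets, SP by 7.36% and 7.72%, EGR by 3.65% and 4.04%, and TATA by 10.43% and 11.8%. REST, at 7.1% and 5.97%, and AP-1, at 18.01% and 21.2%, kept a distance, as did NFI (TTGGCA), a family active in glia and neurons, at 21.91% and 25.07%. All merged regions of that GC range had 6.48% for REST, 18.75% for AP-1 and 23.51% for NFI, between the shares of both sets. At promoters, FANS-only regions had lower shares for the letters of general promoter factors than promoters open in all 6 lists, with 39.36% against 63.34% for SP, 4.14% against 16.07% for ETS and 3.95% against 10.31% for NFY (CCAATCA).

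The FANS-only regions were nearest to 4724 of 26180 annotated genes (18%). Among lists of genes chosen for cortical cells, 7 of 13 excitatory markers were nearest to at least 1, among them Bcl11b, Camk2a, Cux2, Fezf2, Neurod2 and Tbr1, and of the 303 merged regions nearest to such markers 27 (8.91%) were FANS-only, beside 5.13% overall. Cux2 alone had 14 of them, 9 in the dense bin named above and 5 in the bin before it. For the microglial markers Aif1, C1qa, C1qb and Trem2 it was 5 of 29 regions (17.24%), each in a bin of at least 47.0% GC, and Aif1, the only one of these tested by RNA, was not called. Oligodendrocyte markers had 1 of 118 (0.85%), in an intron of Mog, astrocyte markers 6 of 137 (4.38%) and inhibitory markers 5 of 102 (4.9%).

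Keratin genes, structural proteins of epithelia that lie in clusters on chromosomes 11 and 15, had the highest share of the lists examined, 16 of 81 regions (19.75%), with Krt1 nearest to 2. The highest regions of Krt1, Krt8, Krt81 and Krt86 lay in a bin of 49.0% GC, that of Krt16 in a bin of 48.3% and that of Krt23 in a bin of 43.9%. In bins of at least 48% GC, 17.78% of all merged regions were FANS-only. Ion channels of the Kcn, Scn and Cacn families had 161 of 2230 (7.22%), and 68 of 142 such genes were nearest to at least 1, among them Cacna1h, a T-type calcium channel (heights 8.58, 8.61 and 9.61), and Kcnc1, a potassium channel of fast-spiking cells (8.89, 9.73 and 7.21). Glutamate receptors had 50 of 772 (6.48%) in 14 of 28 genes. Grin2a, an NMDA receptor subunit, was nearest to 14, and Grik3, Grik4 and Grm4 to 6 each. GABA-A receptors had 6 of 296 (2.03%), cadherins 14 of 791 (1.77%), protocadherins 11 of 452 (2.43%) and olfactory receptors 12 of 506 (2.37%). Immediate early genes had 18 of 285 (6.32%) in 7 of 22 genes, of which Dusp1, a phosphatase, had 6 and Ier2 had 4. Chromatin regulators had 21 of 293 (7.17%) and genes of endoplasmic reticulum stress and folding 6 of 222 (2.7%).

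Next, the RNA of the genes near FANS-only regions was compared between the techniques in batch 1, which the rule did not use. A gene was called at an adjusted p-value under 0.05 (limma, Benjamini-Hochberg over all 15114 genes tested) and a difference of at least 1.5-fold, and log2 fold changes are INTACT minus FANS on the scale of log2(normalized count + 1), which understates the change of low genes. Of all genes tested, 3.94% were lower and 4.03% higher in INTACT. Of the 3293 tested genes nearest to a FANS-only region, 178 (5.41%) were lower and 100 (3.04%) higher, with a median log2 fold change of -0.05 against 0.01 for all genes. The depth on genes was 4853224 to 6066759 reads per library for FANS and 8621143 to 11028713 for INTACT. Reads that the authors' count assigned to no feature made up 79.42 to 81.75% of the total in FANS and 71.3 to 72.74% in INTACT, without overlap. Whether they lay in introns or between genes is not given, and their part in the numbers of called genes was not tested.

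Promoter regions were set against RNA first. Of 287 tested genes with a FANS-only promoter region, 12 (4.18%) were lower and 14 (4.88%) higher in INTACT, with a median of 0.0, close to all genes. Within 10 kb of the start site, 60 (4.49%) of 1337 were lower and 50 (3.74%) higher. Genes nearest to intronic regions gave 145 (7.06%) lower and 52 (2.53%) higher of 2055, and those nearest to regions between genes 44 (3.43%) and 43 (3.35%) of 1282.

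Genes were then taken by their number of regions. Of the 230 tested genes nearest to 5 or more FANS-only regions, 28 (12.2%) were lower and 2 (0.87%) higher, with a median of -0.23. The number higher was 4 without FANS RNA library 1 and 1 without FANS library 3, INTACT library 1 or INTACT library 2. Of 2471 genes with at least 5 regions of all 6 lists and no FANS-only region, 123 (4.98%) were lower and 91 (3.68%) higher. Genes with many regions were also long, with a median span of 108.7 kb against 22.1 kb for all genes tested. Among genes that span at least 300 kb, those with a FANS-only region were lower in 21 of 182 (11.5%) and higher in 0, and those without were lower in 17 of 317 (5.36%) and higher in 7. Between 100 and 300 kb, the shares of lower genes were 3.56% of 505 and 2.82% of 1135, from 20 to 100 kb 3.77% of 1352 and 2.99% of 4484, and under 20 kb 7.02% of 1254 and 3.96% of 5834. Here regions were given to the gene with the nearest start site. On that basis the share of lower genes was higher with a FANS-only region in each of the 4 ranges of span. Intronic regions were also given to the genes that span them. Genes with an intronic FANS-only region were then set beside genes with intronic regions of all 6 lists only. Under 100 kb, 3.34% and 3.43% were lower, with no excess. From 100 to 300 kb it was 3.85% and 2.77%, and from 300 kb on 11.1% and 5.41%. The difference between these shares was not tested, since genes are not replicates.

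Many of the lower genes lay inside another gene. Of the 178 lower genes nearest to a FANS-only region, 82 (46.1%) had their whole span within the span of another annotated gene, against 0 of the 100 higher genes and 175 of the 3293 tested (5.3%). Among all autosomal genes tested, 229 of 569 lower genes (40.2%) and 1.9% of the higher genes were nested too. Of the 175 such nested genes, 82 (46.9%) were lower, while of the 626 tested nested genes with no FANS-only region 147 (23.5%) were lower. Of the 3118 genes that were not nested, 96 (3.08%) were lower and 100 (3.21%) higher, against 2.3% and 4.44% of 10603 without a FANS-only region. Whether the counting used strand is not given in the sources used here, so reads of a nested gene and of the gene around it cannot be told apart.

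Among the genes with 5 or more regions, 14 of the 28 lower genes were nested, several of them in long genes of neurons. 1700123O21Rik, inside Rbfox1, had 38.1 ± 8.5 normalized counts in FANS and 10.2 ± 4.0 in INTACT (SD, n = 4 each), and its log2 fold change was -1.85 (SE 0.288, adjusted p = 1.56e-05, limma). Lrtm1, inside the calcium channel gene Cacna2d3, had 657.3 ± 70.9 and 190.4 ± 12.5, a log2 fold change of -1.78. 4930563F08Rik lies inside Auts2 (-1.76), 4931430N09Rik inside Cacna1c (-1.87), Gm6402 inside Btbd9 (-1.75) and Hmgb4 inside Csmd2 (-1.61). The lower genes with 5 or more regions that were not nested included the synaptic genes Erc2 (-0.98), Dlg2 (-0.65) and Dlgap2 (-0.62), the kinase scaffold Ksr2 (-0.80) and Auts2 (-0.67), a regulator of neuronal development. Of the 211 tested genes of that kind, 14 (6.64%) were lower and 2, Rplp1 (0.77) and Elfn1 (0.79), higher.

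The genes with the most FANS-only regions did not share a call. Dlg2 had normalized counts of 3344, 3442, 3851 and 3928 in the FANS libraries and 2308, 2286, 2346 and 2343 in the INTACT libraries, and its log2 fold change was -0.65 (SE 0.049, adjusted p = 3.27e-10, limma). Every FANS value of Dlg2 lay above every INTACT value. Rbfox1 had 1860, 1820, 1906 and 1962 against 1378, 1362, 1214 and 1289, and Celf2 11682, 11564, 12318 and 11971 against 8555, 8166, 8134 and 8076, and both had -0.53, short of 1.5-fold. The values of these genes did not overlap either. Ntm, at -0.13 (adjusted p = 0.113), had values that overlapped between the techniques.

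Among genes within 10 kb of a FANS-only region, with a mean of at least 50 and no overlap between the techniques, the largest difference was in Muc6, which encodes a mucin. It had 208, 190, 243 and 254 normalized counts in FANS and 77, 50.5, 49.8 and 51.6 in INTACT. The log2 fold change was -1.96 (SE 0.138, adjusted p = 1.07e-10, limma). Its nearest region lay in an exon (chr7:141648924-141649519). Lncpint, a long non-coding RNA, had 1092, 991, 1083 and 977 against 525, 488, 471 and 496 (-1.06), with a region in an intron. Kcnq1ot1, the antisense RNA inside Kcnq1 that silences neighbouring genes on the paternal chromosome, had 18376, 18320, 18794 and 23361 against 12162, 9728, 8709 and 8340 (-1.03). Serpind1, a clotting inhibitor gene inside Pi4ka, had 161 ± 8.02 and 83.2 ± 2.59 (SD, n = 4, -0.95). Gm6588, inside Sez6l (-1.40), Gm4432 (-1.11), Krt20 (-1.09) and 2900041M22Rik (-0.97) were the others.

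The largest rise in that group was in Apoe, with 74.6, 94.4, 51.8 and 94.8 normalized counts in FANS and 189, 190, 196 and 177 in INTACT. The log2 fold change was 1.28 (SE 0.144, adjusted p = 1.61e-07, limma). Its promoter region (chr7:19698424-19699295) had peaks in the FANS lists alone while its RNA was higher in INTACT. The same held for Aldoc, with 56.6, 74.8, 47.7 and 61.1 against 112, 90.2, 110 and 114 (0.83) and a region 52 bp from its start site (chr11:78322789-78323462). Map1lc3a, a protein of autophagosomes (1.00), Timp2, an inhibitor of metalloproteases (0.86), Pfdn5, a subunit of a folding complex (0.83), Nme3 (0.81), Psap, the precursor of lysosomal saposins (0.75), and Mcam, a cell adhesion protein (0.73), had regions 7339 to 9682 bp away. Psap had 1628, 1644, 1450 and 1765 against 2820, 2582, 2783 and 2705.

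**Figure D5:**
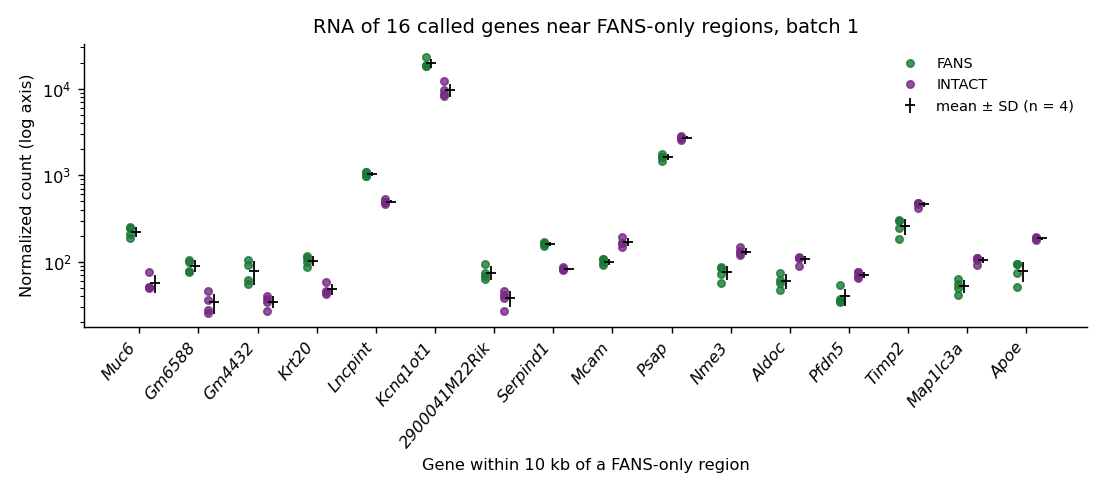
Normalized counts (y axis, log scale) of the 16 named genes within 10 kb of a FANS-only region in each of the 4 FANS and 4 INTACT RNA-seq libraries of batch 1, with the mean and SD beside the points. The 8 genes on the left are higher in every FANS library and the 8 on the right in every INTACT library.

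Markers of astrocytes and oligodendrocytes differed between the techniques in the same RNA libraries. The 13 astrocyte markers, which include Apoe and Aldoc, summed to 6668 to 7388 normalized counts in FANS and 8371 to 8574 in INTACT, with 7 of 13 called higher, and the oligodendrocyte markers to 6673 to 8305 and 10650 to 11269, with 7 of 13 called higher. No marker of either list was at 0 in all libraries. Their part in the values of Apoe and Aldoc was not tested, and in bulk libraries more cells of a type and more RNA per cell cannot be told apart. The excitatory markers summed to 13073 to 13347 in FANS and 12583 to 13097 in INTACT, and 0 of 13 were called. The inhibitory markers summed to 350 to 480 and 445 to 527, with 4 of 10 tested called higher and 1 lower. Sums of microglial markers (287 to 382 and 311 to 338), of oligodendrocyte precursor markers (434 to 495 and 473 to 546) and of vascular markers (71 to 113 and 96 to 111) overlapped. Of 5 microglial markers tested 1 was called lower, of 6 precursor markers 1 higher, and of 4 vascular markers tested 1 lower and 1 higher.

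The RNA of the genes nearest to the 20 regions named as the 5 highest of each class was also read. For 11 of these regions the nearest gene was not tested, because its mean was under 5 or, for Gm9936 and 4930526F13Rik, because it was not found in the table. Of all 4724 genes nearest to a FANS-only region, 3293 were tested. Ass1 had a mean of 0.0 normalized counts in FANS and 0.84 in INTACT, and Svs6, Elovl3, a fatty acid elongase, and Myl2 were listed at 0 in all 8 libraries. Where the nearest gene was tested, none of the others was called, from Camta1 (-0.09), a transcription factor gene of neurons, and Dlg1 (-0.10), a synaptic scaffold, to Men1 (0.38, limma adjusted p = 4.95e-04) and Pwwp2b (-0.41, adjusted p = 0.106).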

How the data were processed

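ATAC-seq libraries (3 FANS, 3 INTACT) had been aligned to mm10 with Bowtie2, reduced to properly paired, deduplicated reads and called for peaks with MACS2 in each library by the authors, and the calling parameters are not given in the sources used here. Each peak of the deposited lists has a fold enrichment ratio, -log10 p-values and q-values, a score made from the q-value, and a summit offset. The deposited RNA table of batch 1 (4 FANS, 4 INTACT) holds a signal, UMI-deduplicated read counts per gene (STAR, HTSeq) divided by size factors (DESeq) by the authors. The RNA tables of the other batches were not used. Rows that name no gene were left out, and 1 of them, for reads assigned to no feature, held 71.3 to 81.75% of the total.

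Peaks were merged at 1 bp of overlap on autosomes. Each region took the class and nearest start site of its centre from curated RefSeq transcripts of GRCm38.p6 (mm10), with promoters within 1500 bp. GC content and motifs were read 150 bases to each side of the summit, and regional GC in 1 Mb bins. Of 24421 genes in the RNA table, 23165 were found in the annotation under the same symbol and 1073 under an older one. RNA was compared with limma 3.58.1 (R 4.3.3, trend) on log2(value + 1) for genes with a mean of at least 5, with Benjamini-Hochberg adjustment. The scripts were tested on simulated data. Divided by what 1 read is worth in each library, 99.99 to 100% of values lay within 0.05 of a whole read, and edgeR 4.0.16 on these reads called 649 genes lower and 605 higher.

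Genes were named by a rule: the 5 regions with the largest lowest height in each class, the 8 called genes within 10 kb with the largest change in each direction (mean of at least 50, techniques not overlapping), the 5 genes with the most regions, up to 6 genes per list, and the 5 densest bins. The regions, rule and gene lists were chosen with earlier results of these data known. Genes named outside the rule, such as those with 5 or more regions, were chosen after their values were seen. Alternatives covered overlap, peak threshold, equal peak numbers, promoter width, bin size, pseudocount, filter, scaling, a replicate block and each library left out. No interval is given for peaks, since their depth is unknown, and p-values measure the spread between libraries, which may be technical. Some genes are not reported here.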

Additional observations from a re-analysis of the deposited data

Results flagged for a closer look

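In groups of 4 RNA libraries, a library was marked where its gap to the nearest other, divided by the range, passed Dixon's 95% critical value, which chance passes in about 1 of 20 groups. Of 218 groups of named genes, 10 held such a library. Muc6 had 77 normalized counts in INTACT library 1 and 49.8 to 51.6 in the others. Kcnq1ot1 had 23361 in FANS library 4, where the others had 18320 to 18794. Aldoc had 90.2 in INTACT library 2 against 110 to 114. Pfdn5 had 53.5 in FANS library 4 against 34.3 to 37.3. Slc32a1, the vesicular GABA transporter, had 18 in FANS library 1 against 21.4 to 22.1, and 28.4 in INTACT library 4 against 35.5 to 36.7. Luc7l, a splicing factor, had 1869 in FANS library 4 against 2078 to 2119. Gabrd, a GABA-A receptor subunit, had 408 in INTACT library 1 against 443 to 445. Pcdhga2, a protocadherin, had 104 in INTACT library 2 against 72.7 to 74.7. Rpl38, a ribosomal protein, had 45 in FANS library 3 against 65.7 to 69.9.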

How the results depend on the processing

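The number of FANS-only regions was 9385 to 13510 with a library left out, highest without INTACT library 3, 5739 with the same number of peaks (99514) from each list, and 8176 to 8517 under the other overlaps and thresholds. With equal peak numbers the intron share was 51.42%, and the share of regions that were FANS-only was 16.89% in bins of at least 48% GC and 0.25% in bins under 38% (18.85 to 23.68% and 0.63 to 1.2% with a library left out, chosen after seeing the data). With promoters from 1000 bp before to 100 bp after the start site, 2.84% of regions were at promoters and 54.2% in introns, and leaving out a library gave 52.95 to 53.73% in introns. Leaving out a library gave a median GC of 50.2 to 50.5%, a median height percentile of 26 to 31.2 and 48.4 to 56.1% of regions in the 10% of bins with the most, which was 49.8% with bins of 5 Mb. Nearest genes lower and higher in INTACT numbered 60 and 50 within 10 kb and 12 and 14 within 1500 bp. Of genes with 5 or more regions, 1 was higher with edgeR and 1 without a filter, and 1 to 4 with an RNA library left out. The other counts stayed within 1.5 times the reported ones, and 0 named genes reversed. The call of Rpl32 was lost with a pseudocount of 5 and under both other scalings, and without FANS RNA library 1 or INTACT RNA library 1 or 3, and that of Slc32a1 without INTACT RNA library 2 or 3. ATAC-seq depth is unknown, which limits what the absence of a peak shows.

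With the replicate number as a block, 175 nearest genes were lower and 98 higher, and 28 and 2 of those with 5 or more regions. Same-numbered FANS and INTACT libraries did not deviate together (correlations of -0.07, -0.01, -0.021 and -0.065), so the numbers do not pair the libraries.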
